A study of Bos taurus with 138 samples.

Results

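Cholesterol synthesis was followed through bovine preimplantation development with 7 genes listed by symbol, HMGCS1, IDI1, FDFT1, SQLE, LSS, CYP51A1 and DHCR7, out of 16706 genes in the count table. All 7 passed the filter on low counts, which kept 14612 genes. The 6 stages were germinal vesicle (GV) and metaphase II (MII) oocytes and 2-cell, 8-cell, morula and blastocyst embryos of Bos taurus. Each had 3 whole-cell RNA libraries (transcriptomes A, B and C) and 2 sucrose gradients (A and B) cut into 10 fractions. A gradient separates lysate by the number of ribosomes on an RNA. Fractions F8, F9 and F10, the polysomes, were summed within a gradient, which gave 12 polysome pools beside 18 transcriptomes. All groups were oocytes from slaughterhouse ovaries or embryos made from them in vitro, stripped of cumulus cells, without an experimental treatment other than brief cycloheximide to hold ribosomes in place. Every library pooled oocytes or embryos of many animals whose ages were not given. The series calls the gradients and the transcriptomes biological replicates drawn from one batch per stage. The p-values thus measure the spread between such pools, and batch cannot be told apart from stage.

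Cells build cholesterol from acetyl units. HMGCS1 acts on the way to mevalonate, IDI1 interconverts the isoprenoid building blocks, and FDFT1 joins farnesyl units into squalene. SQLE and LSS then convert squalene into lanosterol, the first sterol, which CYP51A1 demethylates, and DHCR7 takes a last step to cholesterol. Transcription of these genes is driven by the membrane-bound factor SREBF2, which SCAP escorts to its activation and INSIG1 holds back while sterol is plentiful. Early embryos live first on stored maternal mRNA, and in cattle the main activation of the embryonic genome falls at the 8-cell stage.

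Transcriptomes held 3269385 to 11812541 counts and polysome pools 22543733 to 39380640. The smallest count of any of the 7 genes was 16 in a transcriptome and 0 in a pool. Levels are CPM, counts scaled to the library total with TMM factors, and are a share of the sequenced mRNA. Less mRNA per embryo cannot be told apart from a lower share, and nothing is said of levels between genes, whose lengths were not used. Oocyte markers, 6 of 6 present, summed to 17060-20320 CPM in the transcriptomes of oocytes, 9066-10680 in 2-cell embryos, 300-616 in 8-cell embryos and at most 103 later. Blastocyst markers, 6 of 7 present, reached 4877-5572 CPM in blastocysts against 60.0-72.0 in GV oocytes. The 9 cumulus and granulosa markers summed to 34.4-46.2 CPM in GV, 296-392 in MII, 104-115 in 2-cell, 122-259 in 8-cell, 22.7-30.9 in morula and 46.4-62.6 in blastocyst transcriptomes. AMH was at 0 in 2-cell and PTX3 at 0 in morula libraries, and the part of those cells in any result was not tested. In some libraries all 7 genes lay at one end of their stage. Transcriptome A of 8-cell embryos was the highest of its stage for 7 of 7 (2.02 to 2.49 times the other libraries on the CPM + 1 scale), as it was for 39.6% of all genes. Transcriptome A of blastocysts, which had the smallest total, was the lowest for 7 of 7 (0.406 to 0.809 times), as for 37.6% of all genes. Of the 2 polysome pools of morulae, A was the lower for 7 of 7 (0.0421 to 0.393 times pool B), as for 52.5% of all genes. Which of these pools stood apart cannot be told. Calls of the 7 genes that change without one of these libraries are given beside the results.

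In the transcriptomes the genes moved in a wave: up into the 8-cell embryo, down in the morula and up again in the blastocyst. From 2-cell to 8-cell embryos 6 of 7 rose, where 26.6% of all genes tested rose and 23.5% fell. The median log2 change was 2.87 for the 7 genes and 0.03 for all genes. From 8-cell embryos to morulae 6 of 7 fell, against 7.75% of all genes (6.6% rose), with a median of -2.30 beside -0.05. From morulae to blastocysts 6 of 7 rose, against 10.2% of all genes (11.4% fell), with a median of 2.94 beside -0.01. None of the 7 was called from GV to MII, where 17.1% of all genes changed in either direction, or from MII to 2-cell, where 12% did. At the first of these steps 1 gene, HMGCS1, had an unadjusted p of 0.0128 and was called by DESeq2 (log2 1.45, adjusted p = 0.0172). It was also called by edgeR's likelihood ratio test, with RLE factors and with only the groups compared fitted (adjusted p = 0.0377, 0.0375 and 0.00011). IDI1 was called lower at this step with only the groups compared fitted (-1.43, adjusted p = 3.47e-06) and after thinning to equal depth (-1.47, adjusted p = 0.033). At the second step 0 had an unadjusted p under 0.05. A gene was called between stages at an adjusted p under 0.05 and a fold change above 2 (edgeR quasi-likelihood test, Benjamini-Hochberg adjustment over 14612 genes, two-sided). These steps share libraries, since the 8-cell transcriptomes enter both the rise and the fall and the morula transcriptomes both the fall and the second rise. Without 8-cell transcriptome A the 6 that rose were 5 and the 6 that fell were 3 (HMGCS1, IDI1 and FDFT1), and without blastocyst transcriptome A the last 6 were 5.

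**Figure D1:**
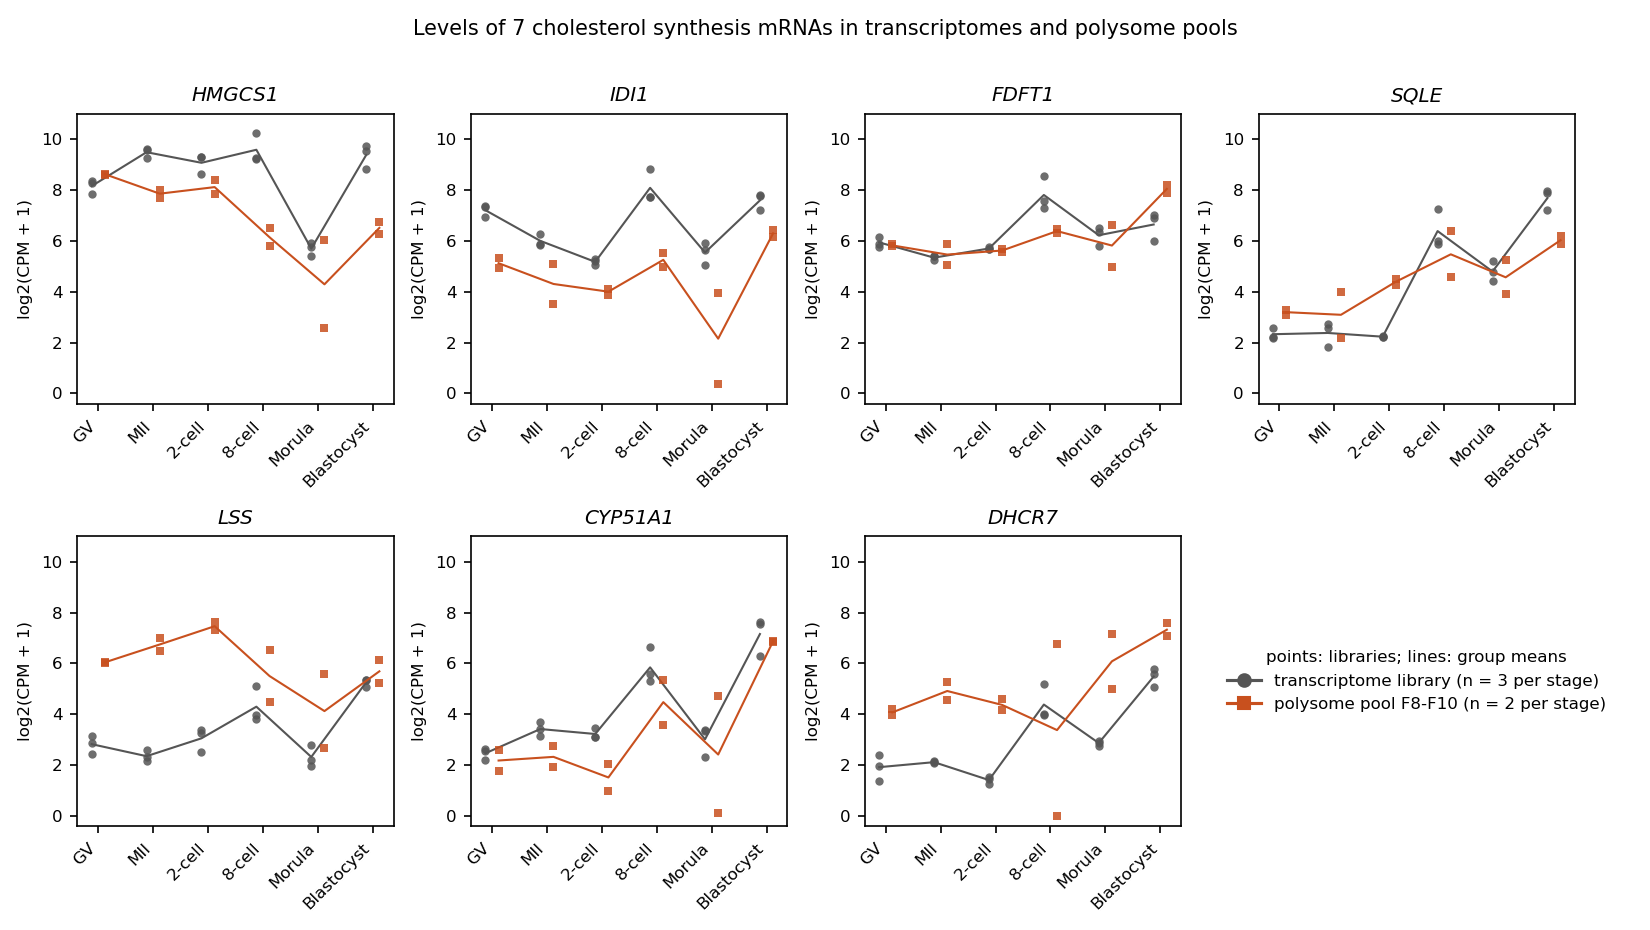
Levels of the 7 genes by stage, as log2(CPM + 1), 1 panel a gene, with each transcriptome (3 a stage) and each polysome pool (2 a stage) as a point and lines through the group means. Mean transcriptome levels stood higher in 8-cell embryos and blastocysts than in morulae, and LSS and DHCR7 pools lay above the transcriptomes in oocytes and 2-cell embryos.

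HMGCS1 makes HMG-CoA, from which mevalonate is formed. Its transcriptome levels (A, B, C) were 308, 231 and 324 CPM in GV, 617, 782 and 772 in MII and 632, 625 and 395 in 2-cell libraries. They were 1231, 602 and 613 CPM in 8-cell, 59.8, 40.9 and 54.0 in morula and 459, 861 and 748 in blastocyst libraries. All morula libraries lay below every other transcriptome and the GV libraries came next, while the ranges of 8-cell, MII, blastocyst and 2-cell embryos overlapped in that order of means. HMGCS1 was the gene of the 7 without a called rise into the 8-cell embryo (log2 change 0.57 ± 0.49 SE, adjusted p = 0.34). It fell 15.8-fold into the morula (-3.98 ± 0.55, adjusted p = 2.68e-05) and rose 13.4-fold into the blastocyst (3.74 ± 0.54, adjusted p = 1.99e-05), and both calls held in all 14 alternatives run.

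On polysomes (pools A, B) HMGCS1 measured 389 and 399.8 CPM in GV, 257 and 208 in MII and 334 and 229 in 2-cell pools. Later pools held 89.9 and 54.1 CPM in 8-cell, 4.92 and 63.9 in morula and 106 and 76.9 in blastocyst embryos. The pools were high in oocytes and 2-cell embryos and low afterwards, although the 8-cell transcriptomes had the highest mean of all stages. Against the transcriptome of the stage, polysome levels were 3.11-fold lower in MII (log2 difference -1.64 ± 0.58, adjusted p = 0.0185), 11.3-fold lower in 8-cell (-3.50 ± 0.64, adjusted p = 6.26e-05) and 7.53-fold lower in blastocyst embryos (-2.91 ± 0.62, adjusted p = 0.000585). Pools and transcriptomes did not overlap at these stages. The MII call was lost without pool A or B (adjusted p = 0.0578 and 0.104). In morulae, where HMGCS1 was not called (-0.58 ± 0.56), the value without pool B was -3.40 (adjusted p = 1.45e-05).

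IDI1 is the isopentenyl diphosphate isomerase. Transcriptome levels were 122, 163 and 159.5 CPM in GV, 76.2, 56.4 and 58.4 in MII and 38.1, 35.7 and 31.9 in 2-cell libraries. They were 449, 209 and 213 CPM in 8-cell, 48.9, 32.5 and 59.7 in morula and 148, 214 and 224 in blastocyst libraries. The lowest 8-cell library was above every 2-cell and morula library, and 8-cell and blastocyst ranges overlapped. The rise into the 8-cell embryo was 8.24-fold (log2 3.04 ± 0.66, adjusted p = 0.000499), the fall into the morula 6.17-fold (-2.63 ± 0.65, adjusted p = 0.00682) and the second rise 4.16-fold (2.06 ± 0.63, adjusted p = 0.02). The second rise missed the threshold without morula transcriptome A or B or blastocyst transcriptome C (1.85 to 2.08, adjusted p = 0.0546 to 0.0888).

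Polysome pools of IDI1 held 38.8 and 29.5 CPM in GV, 10.6 and 32.8 in MII and 16.5 and 13.7 in 2-cell embryos. In 8-cell pools IDI1 was at 45.1 and 30.7 CPM, with 0.289 and 14.3 in morula and 71.0 and 85.03 in blastocyst embryos. Every pool lay below all transcriptomes of its stage. Called differences were 4.34-fold lower in GV (-2.12 ± 0.74, adjusted p = 0.025), 7.66-fold lower in 8-cell (-2.94 ± 0.77, adjusted p = 0.00239) and 6.36-fold lower in morula embryos (-2.67 ± 0.76, adjusted p = 0.00558, but -2.64 with an adjusted p of 0.149 when only the morula groups were fitted). In MII, 2-cell and blastocyst embryos the log2 difference was -1.55, -1.22 and -1.33, not called. In MII it was -2.62 without pool B. It was called there by DESeq2 (-1.76, adjusted p = 0.0193), the likelihood ratio test and with RLE factors (adjusted p = 0.049 and 0.0382). Fitting only the groups compared called MII, 2-cell and blastocyst embryos (adjusted p = 0.0307, 0.00133 and 0.00154). With F7 to F10 as the polysomes it was called in MII and blastocysts (adjusted p = 0.0117 and 0.043), and after thinning in blastocysts (adjusted p = 0.0145). The GV call was lost without pool A (-2.33, adjusted p = 0.0899), pool B (-1.93, adjusted p = 0.159) or transcriptome B (-2.04, adjusted p = 0.052). The size of the morula difference hung on its pools, since it was -1.73 without pool A and -7.32 without pool B.

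FDFT1, squalene synthase, commits the pathway to sterols. Transcriptome levels were 70.8, 58.1 and 53.7 CPM in GV, 36.6, 41.3 and 40.9 in MII and 50.7, 52.7 and 49.9 in 2-cell libraries. They were 373, 191 and 157 CPM in 8-cell, 81.0, 55.3 and 89.4 in morula and 63.5, 129 and 119 in blastocyst libraries. The 8-cell libraries lay above all others, and morula and blastocyst ranges overlapped. FDFT1 rose 4.7-fold into the 8-cell embryo (2.23 ± 0.38, adjusted p = 3.5e-05) and fell 3.19-fold into the morula (-1.67 ± 0.37, adjusted p = 0.00312). Its step into the blastocyst was not called (0.47 ± 0.36, adjusted p = 0.379). Polysome pools held 57.3 and 54.0 CPM in GV, 58.0 and 32.0 in MII, 50.2 and 46.5 in 2-cell, 79.0 and 86.6 in 8-cell, 30.8 and 99.2 in morula and 294 and 236 in blastocyst embryos. Both 8-cell pools lay below, and both blastocyst pools above, all transcriptomes of the stage. FDFT1 was thus 2.9-fold lower on 8-cell polysomes (-1.54 ± 0.43, adjusted p = 0.00391) and 2.55-fold higher on blastocyst polysomes (1.35 ± 0.40, adjusted p = 0.00958), with log2 differences between -0.21 and 0.18 at the other stages. The blastocyst call was lost without pool A (1.17, adjusted p = 0.0749) and without transcriptome A (1.09, adjusted p = 0.0525), with library totals alone (1.02, adjusted p = 0.053) and after thinning to equal depth (0.94, adjusted p = 0.0565), and in morulae the difference was -1.30 (adjusted p = 0.026) without pool B.

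SQLE, squalene epoxidase, is a rate-limiting oxygen-dependent step. Its transcriptome levels were low through the 2-cell stage, with 4.93, 3.69 and 3.55 CPM in GV, 5.72, 4.97 and 2.50 in MII and 3.80, 3.60 and 3.69 in 2-cell libraries. They were 153, 63.2 and 58.5 CPM in 8-cell, 26.3, 20.5 and 35.5 in morula and 146, 235 and 249.5 in blastocyst libraries. The stages from GV to 2-cell did not separate from each other, and every later library lay above them. SQLE rose 24.7-fold into the 8-cell embryo (4.63 ± 0.58, adjusted p = 6.03e-07), fell 3.33-fold into the morula (-1.74 ± 0.51, adjusted p = 0.0221) and rose 7.66-fold into the blastocyst (2.94 ± 0.54, adjusted p = 0.000266). The fall was lost without 8-cell transcriptome A (-1.15, adjusted p = 0.173) and without morula transcriptome A or B (-1.71 and -1.56, adjusted p = 0.0789 and 0.101).

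In the pools SQLE measured 7.57 and 8.81 CPM in GV, 14.9 and 3.58 in MII, 21.8 and 18.4 in 2-cell, 22.8 and 81.9 in 8-cell, 13.9 and 36.8 in morula and 71.6 and 57.7 in blastocyst embryos. The 2-cell pools were above all 2-cell transcriptomes and the blastocyst pools below all blastocyst transcriptomes. SQLE was 5.43-fold higher on polysomes of 2-cell embryos (2.44 ± 0.57, adjusted p = 0.000944) and 3.25-fold lower on those of blastocysts (-1.70 ± 0.59, adjusted p = 0.0247). In GV, MII, 8-cell and morula samples the log2 difference was 1.01, 1.07, -0.81 and -0.11, not called. The GV difference was called when only the groups compared were fitted (1.12, adjusted p = 0.0167). That of MII was called with F7 to F10 as the polysomes (1.25, adjusted p = 0.0358). The blastocyst call was lost without either pool or without transcriptome B or C (-1.88 to -1.55, adjusted p = 0.054 to 0.14), and with F9 and F10 alone as the polysomes (-1.80, adjusted p = 0.063). Without pool B SQLE was called in 8-cell embryos (-2.004, adjusted p = 0.0192) and in MII (1.725, adjusted p = 0.021).

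LSS, lanosterol synthase, closes the sterol rings. Transcriptome levels were 7.90, 4.41 and 6.39 CPM in GV, 4.01, 4.97 and 3.45 in MII and 8.52, 4.80 and 9.40 in 2-cell libraries. They were 33.7, 14.8 and 13.0 CPM in 8-cell, 5.97, 3.58 and 2.91 in morula and 32.3, 40.2 and 40.2 in blastocyst libraries. The 8-cell and blastocyst ranges overlapped, lay above all other stages, and the other 4 stages overlapped their neighbours in order of means. The polysome pools had their highest means in MII and 2-cell embryos, where the transcriptomes were low, with 66.1 and 63.9 CPM in GV, 127 and 89.1 in MII and 158 and 196 in 2-cell embryos. Later pools held 21.4 and 91.1 CPM in 8-cell, 5.30 and 47.4 in morula and 70.1 and 36.5 in blastocyst embryos. In oocytes and 2-cell embryos every pool lay above every transcriptome of its stage, while in 8-cell embryos and morulae pool A lay within their range.

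LSS was 10.4-fold higher on polysomes than in the transcriptome in GV (3.38 ± 0.65, adjusted p = 0.000187), 26.1-fold in MII (4.70 ± 0.68, adjusted p = 2.85e-06) and 23.3-fold in 2-cell embryos (4.54 ± 0.67, adjusted p = 4.99e-06). These calls held in all 15 alternatives. It was also called in 8-cell (2.75-fold, 1.46 ± 0.62, adjusted p = 0.0463) and morula embryos (6.34-fold, 2.66 ± 0.64, adjusted p = 0.00141). The 8-cell call was lost by DESeq2 (1.21, adjusted p = 0.0793) and held in 5 of 15 alternatives. The morula call was lost when only the morula groups were fitted (2.71, adjusted p = 0.0506). Without pool B the value was 0.06 in 8-cell embryos (adjusted p = 0.966) and 0.34 in morulae (adjusted p = 0.684). The 8-cell call also failed without transcriptome B or C (adjusted p = 0.132 and 0.144). In the transcriptomes LSS rose 2.7-fold into the 8-cell embryo (1.43 ± 0.58, adjusted p = 0.0407), fell 4.92-fold into the morula (-2.30 ± 0.60, adjusted p = 0.0104) and rose 9.03-fold into the blastocyst (3.17 ± 0.62, adjusted p = 0.000547). The first rise was lost without 8-cell transcriptome A (0.87, adjusted p = 0.247) or any 2-cell transcriptome (1.19 to 1.62, adjusted p = 0.0573 to 0.144), and with library totals alone, no filter or a block by letter (adjusted p = 0.0567, 0.0559 and 0.0599). The fall was lost without 8-cell transcriptome A (-1.74, adjusted p = 0.0725) or morula transcriptome B or C (-2.20 and -2.09, adjusted p = 0.0507 and 0.0587). A long non-coding RNA, LOC132346253, overlaps the span of LSS in the RefSeq table. The libraries carried no strand, so reads from any shared exons could not be parted by strand. Overlap of exons and the part of this RNA in the LSS counts were not tested.

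CYP51A1, lanosterol 14-alpha demethylase, removes a methyl group from the first sterol. Transcriptome levels were 5.24, 4.82 and 3.65 CPM in GV, 11.9, 9.73 and 7.85 in MII and 7.61, 7.51 and 10.2 in 2-cell libraries. They were 99.5, 38.4 and 47.2 CPM in 8-cell, 9.43, 3.93 and 9.27 in morula and 77.3, 196 and 189 in blastocyst libraries. Blastocyst and 8-cell libraries were high with overlapping ranges, and all others were low. CYP51A1 rose 7.32-fold into the 8-cell embryo (2.87 ± 0.87, adjusted p = 0.00837), fell 8.18-fold into the morula (-3.03 ± 0.88, adjusted p = 0.0203) and rose 20.4-fold into the blastocyst (4.35 ± 0.94, adjusted p = 0.00132). The fall was lost without 8-cell transcriptome A (-2.51, adjusted p = 0.0843) or any morula transcriptome (-3.23 to -2.72, adjusted p = 0.0585 to 0.0975).

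Polysome pools of CYP51A1 held 2.40 and 5.05 CPM in GV, 2.77 and 5.65 in MII, 3.11 and 0.984 in 2-cell, 40.1 and 11.1 in 8-cell, 0.0964 and 25.0 in morula and 115 and 118 in blastocyst embryos. The pools were low through the 2-cell stage and high in blastocysts, as the transcriptomes were, and the 2 morula pools lay on either side of their transcriptomes. CYP51A1 was called at 0 of 6 stages between polysomes and transcriptome, with log2 differences from -2.03 ± 0.99 in 2-cell embryos (adjusted p = 0.09) to 0.74 ± 0.91 in morulae. The 2-cell difference was called by DESeq2 (-2.21, adjusted p = 0.0291) and when only the groups compared were fitted (-2.15, adjusted p = 0.00809). In morulae the value was 1.71 without pool A (adjusted p = 0.0388) and -6.20 without pool B (adjusted p = 0.000188).

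DHCR7, 7-dehydrocholesterol reductase, makes cholesterol in the final reaction. Transcriptome levels were 4.33, 2.87 and 1.62 CPM in GV, 3.44, 3.24 and 3.33 in MII and 1.37, 1.76 and 1.88 in 2-cell libraries. They were 35.6, 14.97 and 14.5 CPM in 8-cell, 6.35, 5.81 and 6.79 in morula and 32.6, 47.5 and 54.2 in blastocyst libraries. Blastocyst and 8-cell libraries overlapped and were the highest, the morula lay between, and the first 3 stages were lowest. DHCR7 rose 13.0-fold into the 8-cell embryo (3.70 ± 1.08, adjusted p = 0.00622) and 7.09-fold from morula to blastocyst (2.83 ± 1.02, adjusted p = 0.0473), with a step between them that was not called (-1.78 ± 0.99, adjusted p = 0.242). The second rise was lost without any one morula or blastocyst transcriptome (2.68 to 3.01, adjusted p = 0.0611 to 0.128), with library totals alone (adjusted p = 0.0621) and with a block by letter (adjusted p = 0.0635).

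On polysomes DHCR7 measured 17.3 and 14.5 CPM in GV, 37.7 and 22.6 in MII, 16.8 and 23.0 in 2-cell, 0 and 107 in 8-cell, 30.9 and 144 in morula and 135 and 189.6 in blastocyst embryos. All pools lay above every transcriptome of their stage except 8-cell pool A, which had 0 counts, so that a level of up to 0.133 CPM could have been missed. DHCR7 was 9.02-fold higher on polysomes in MII (3.17 ± 1.10, adjusted p = 0.0167), 11.9-fold in 2-cell (3.57 ± 1.12, adjusted p = 0.0103) and 13.8-fold in morula embryos (3.79 ± 1.10, adjusted p = 0.00645). In GV, 8-cell and blastocyst samples the log2 difference was 2.43 ± 1.08 (adjusted p = 0.0767), 1.30 ± 1.04 and 1.85 ± 1.05, not called. The GV difference was called by the likelihood ratio test, after thinning and with F7 to F10 as the polysomes (adjusted p = 0.0435, 0.047 and 0.0442). Fitting only the groups compared called GV (2.54, adjusted p = 0.000136) and blastocysts (1.91, adjusted p = 0.000266). The MII call was lost without pool A (2.70, adjusted p = 0.0834) or transcriptome B (3.12, adjusted p = 0.0501). The morula call was lost without pool B (2.28, adjusted p = 0.118). Without 8-cell pool A the 8-cell difference was 2.31 (adjusted p = 0.00148), and without pool B, which leaves a pool at 0, DHCR7 was called lower (adjusted p = 4.92e-07).

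Across stages the direction of the calls against the transcriptome differed between genes. LSS and DHCR7 were called higher on polysomes at 5 and 3 of 6 stages and never lower. In GV and MII both also exceeded all transcriptomes in 4 of 4 libraries of the ribosome-free fractions F1 and F2, so their excess was not confined to polysomes. HMGCS1 and IDI1 were called lower at 3 stages each and never higher, FDFT1 and SQLE once in each direction and CYP51A1 at none. In GV oocytes 1 of 7 was higher (22.2% of all genes) and 1 lower (17.7%). In MII 2 were higher (30.8%) and 1 lower (26.7%), and in 2-cell embryos 3 higher (29.1%) and 0 lower (21.9%). In 8-cell embryos 1 was higher (28%) and 3 lower (31%), in morulae 2 higher (26.5%) and 1 lower (25.2%), and in blastocysts 1 higher (20%) and 2 lower (20.1%). Each count was within 2 genes of what the share of all genes gives for 7 genes, so none is a result about the 7 as a set. Over all stages 18 of 42 gene and stage pairs were called, 10 higher and 8 lower, and the 6 comparisons use separate libraries.

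**Figure D2:**
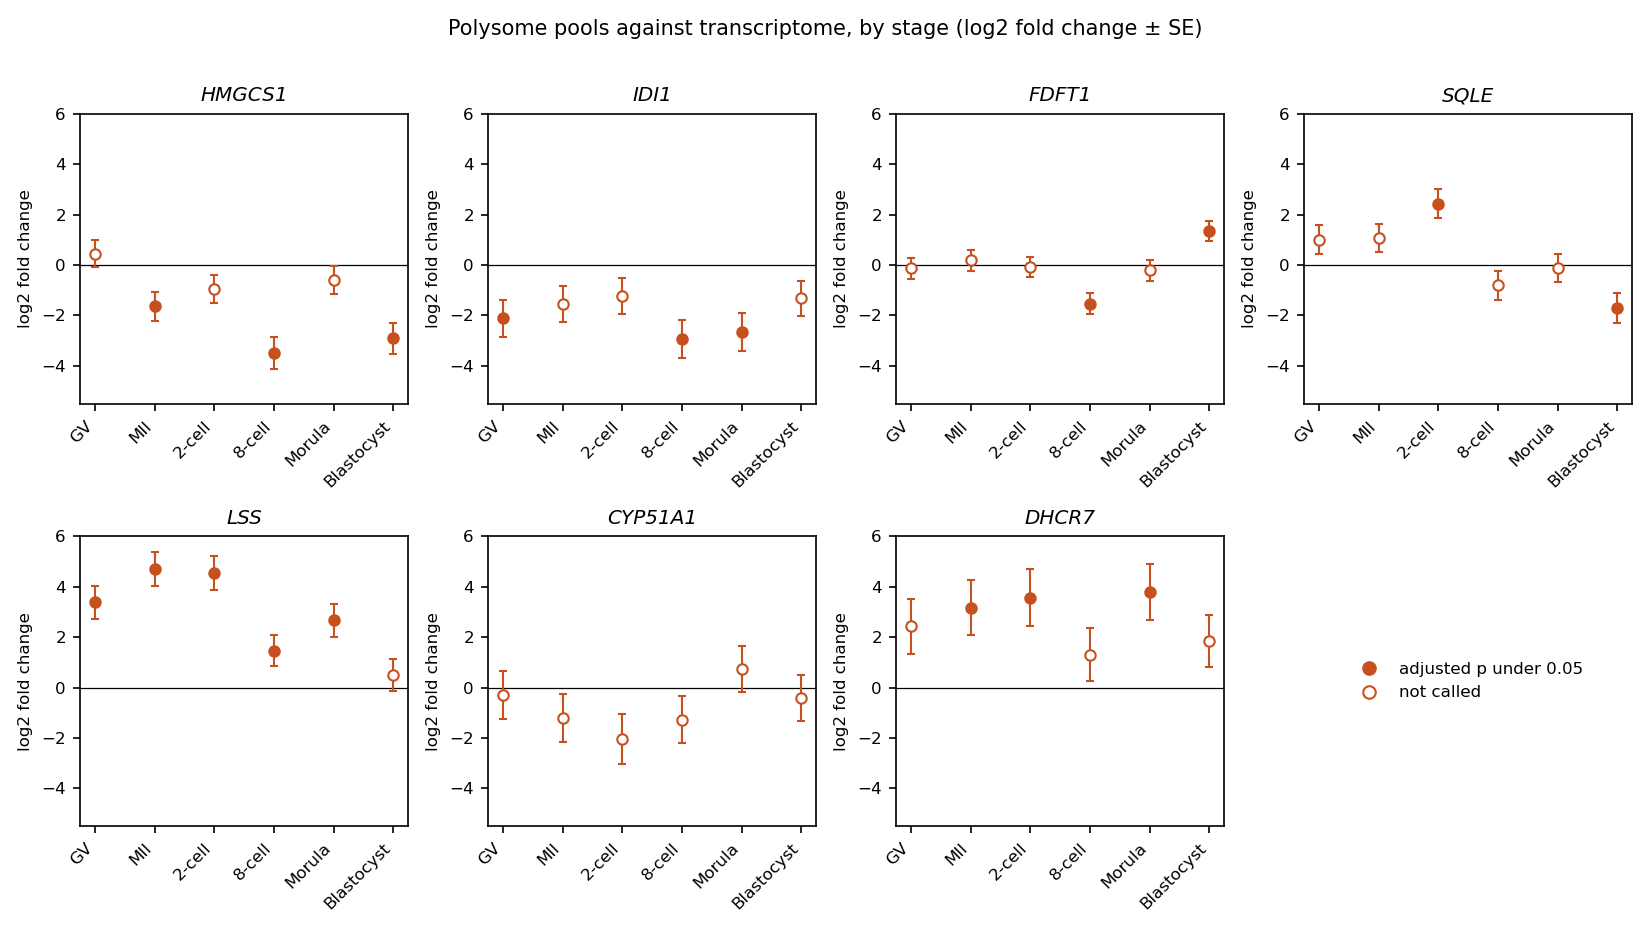
Log2 difference of polysome pools from the transcriptome of the same stage, with bars of 1 SE, for each of the 7 genes at 6 stages, where filled points had an adjusted p under 0.05. LSS and DHCR7 lie above 0 at every stage, IDI1 lies below 0 at every stage, and HMGCS1 is lowest in 8-cell embryos and blastocysts.

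On the polysomes fewer steps between stages were called. From 2-cell to 8-cell embryos CYP51A1 rose 12.4-fold (3.63 ± 1.11, adjusted p = 0.00982), 1 of 7 beside 21% of all genes. HMGCS1 fell 3.92-fold (-1.97 ± 0.62, adjusted p = 0.0118), 1 of 7 beside 25.2%. From 8-cell embryos to morulae IDI1 fell 5.13-fold (-2.36 ± 0.79, adjusted p = 0.0216), 1 of 7 beside 17.7%, and 0 rose beside 18.5%. From morulae to blastocysts IDI1 rose 10.6-fold (3.40 ± 0.82, adjusted p = 0.00801), FDFT1 4.08-fold (2.03 ± 0.46, adjusted p = 0.00556) and CYP51A1 9.24-fold (3.21 ± 1.08, adjusted p = 0.0477), 3 of 7 beside 5.79%, and 0 fell beside 8.13%. None was called from GV to MII or from MII to 2-cell, where 5.37% and 8.51% of all genes changed in either direction, nor by DESeq2 (0 with an unadjusted p under 0.05). Over all 5 steps 10 of 35 had an unadjusted p under 0.05 and 6 were called, none of which was when only the groups compared were fitted (adjusted p = 0.0552 to 0.641). The steps around the morula hung on its pools. Without morula pool A the fall of IDI1 (-1.39, adjusted p = 0.0628) and the rise of CYP51A1 (2.24, adjusted p = 0.0705) were not called. The rise of IDI1 was 2.46 without pool A and 8.05 without pool B, and that of FDFT1 1.44 and 3.11, both still called. Where a call changed without pool B, the step into the morula was -3.85 for HMGCS1, -3.39 for LSS, -7.92 for CYP51A1 and -1.405 for FDFT1. The step into the blastocyst was then 4.22 for HMGCS1 and 3.34 for LSS. The share of all genes called without pool B was not computed. The rise of CYP51A1 into the blastocyst was also lost without either blastocyst pool (3.24 and 3.21, adjusted p = 0.0884 and 0.109), with library totals alone (adjusted p = 0.0653), a block by letter (adjusted p = 0.0731) or F9 and F10 alone (adjusted p = 0.12). Its rise into the 8-cell embryo was lost without 2-cell pool B (3.04, adjusted p = 0.0991) or 8-cell pool A (2.43, adjusted p = 0.0814). The fall of HMGCS1 was lost without 2-cell pool A (-1.67, adjusted p = 0.0707) or 8-cell pool B (-1.65, adjusted p = 0.0828) and with F9 and F10 alone (-1.64, adjusted p = 0.0559), and the fall of IDI1 without 8-cell pool A (-2.05, adjusted p = 0.0722). With all libraries the fall of LSS into the 8-cell embryo was missed by the quasi-likelihood test. It was called by the likelihood ratio test (-1.65, adjusted p = 0.0413), by DESeq2 (-1.84, adjusted p = 0.0151) and with RLE factors (-1.84, adjusted p = 0.0292). It was also called after thinning (-1.71, adjusted p = 0.0373) and with F7 to F10 as the polysomes (-2.01, adjusted p = 0.0134). Steps that the quasi-likelihood test did not call with all libraries passed the threshold with 1 left out. Besides DHCR7 without 8-cell pool B, whose other pool is at 0, these were SQLE into the 2-cell embryo without MII pool A (2.50, adjusted p = 0.0456), SQLE and DHCR7 into the 8-cell embryo without 8-cell pool A (2.03 and 2.43, adjusted p = 0.0128 and 0.0032), LSS there without pool B (-3.045, adjusted p = 0.00624) and SQLE into the morula without 8-cell pool A (-1.69, adjusted p = 0.0454).

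Whether polysomes and transcriptome moved apart was tested as the polysome step minus the transcriptome step. From 2-cell to 8-cell embryos 3 of 7 genes were called, all with the polysome step the lower. Of all genes 12.2% were called in either direction, 1274 with the polysome step lower and 504 with it higher. The lower direction was thus the more common one among all genes, whose median was -0.227 beside -2.265 for the 7. The log2 difference of steps was -2.54 ± 0.78 for HMGCS1 (adjusted p = 0.0351), -3.25 ± 0.81 for SQLE (adjusted p = 0.0111) and -3.09 ± 0.91 for LSS (adjusted p = 0.028). SQLE and LSS rose in the 8-cell transcriptomes with polysome steps of 1.38 (adjusted p = 0.0694) and -1.65 (adjusted p = 0.0559), and HMGCS1 fell on the polysomes without a called transcriptome step. From 8-cell embryos to morulae HMGCS1 was called in the other direction, by 2.92 ± 0.79 (adjusted p = 0.0164), 1 of 7 beside 12.5%. From morulae to blastocysts 0 of 7 were called beside 12.3%, with HMGCS1 nearest at -2.33 (adjusted p = 0.0517), called without blastocyst transcriptome A (-2.56, adjusted p = 0.0488), 3 at an unadjusted p under 0.05 and 2 called by DESeq2. From GV to MII (beside 10.6%) and from MII to 2-cell (beside 1.81%) 0 of 7 were called, with 1 and 0 at an unadjusted p under 0.05 and 1 and 0 called by DESeq2. Over the 5 steps 10 of 35 had an unadjusted p under 0.05 and 4 were called, and by DESeq2 8 were. Without 8-cell transcriptome A the calls of HMGCS1 (-2.11, adjusted p = 0.0991) and LSS (-2.53, adjusted p = 0.0855) at the first step were lost. Lost too were, without 8-cell pool A, those of LSS (-2.38, adjusted p = 0.11) and SQLE (-2.59, adjusted p = 0.0531), and without 8-cell pool B that of HMGCS1 (-2.21, adjusted p = 0.0708). Any single 2-cell library left out ended the call of HMGCS1 (-2.78 to -2.23, adjusted p = 0.0508 to 0.121), and 2-cell pool A, pool B or transcriptome B that of LSS (-3.22 to -2.84, adjusted p = 0.0519 to 0.0821). With F9 and F10 alone HMGCS1 and LSS missed the threshold (adjusted p = 0.109 and 0.0539), as did HMGCS1 with a block by letter (adjusted p = 0.0519) and LSS when only the groups compared were fitted (adjusted p = 0.0653). At the second step HMGCS1 measured 0.13 (adjusted p = 1) without morula pool B and was not called when only the groups compared were fitted (2.92, adjusted p = 0.218). LSS passed it there without 8-cell pool B (2.60, adjusted p = 0.0487). Steps to and from the morula gained calls without either of its pools. Without pool A these were CYP51A1 (3.01) and FDFT1 (1.93) into it and HMGCS1 (-3.21) and LSS (-2.99) out of it. Without pool B they were IDI1 (-4.36) and CYP51A1 (-4.90) into it and IDI1 (5.99), CYP51A1 (5.79) and FDFT1 (2.64) out of it.

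**Figure D3:**
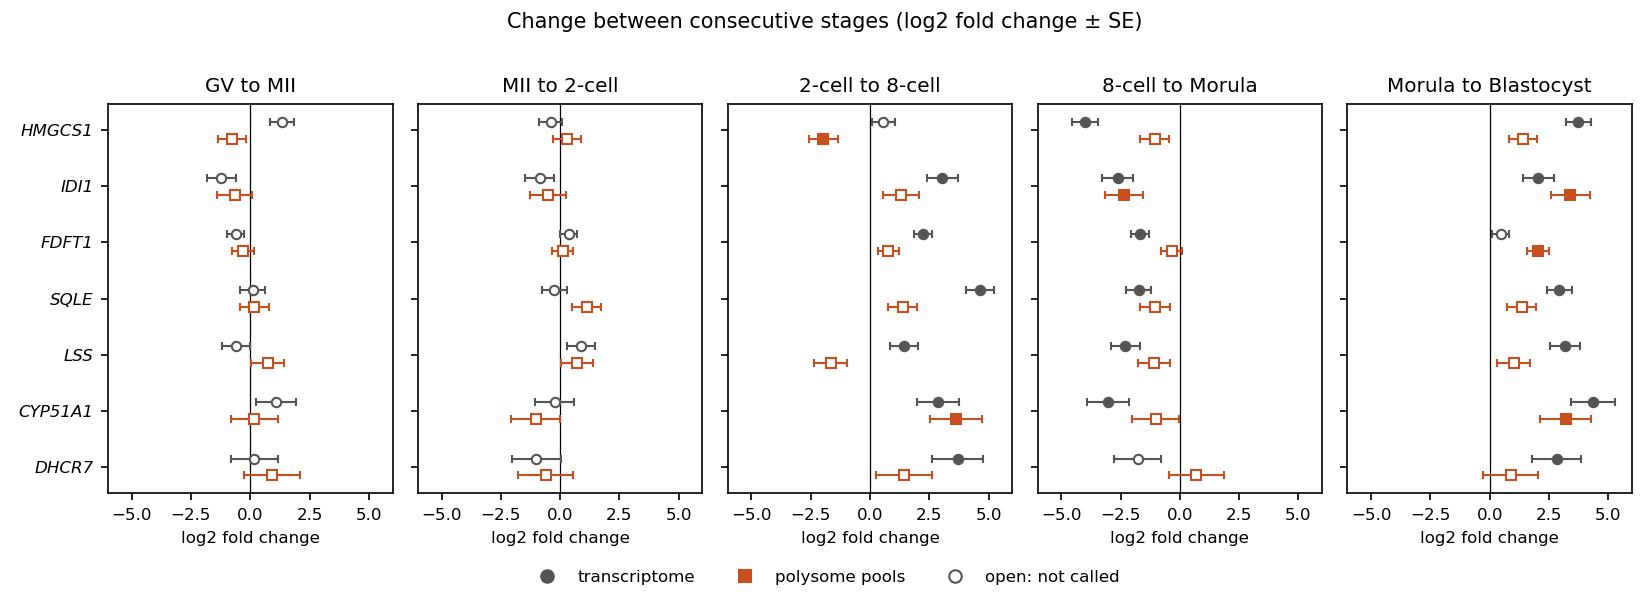
Log2 change of each of the 7 genes at 5 steps between consecutive stages, with bars of 1 SE, in the transcriptomes and on the polysomes, where filled points had an adjusted p under 0.05 and a fold change above 2. The transcriptome steps from the 2-cell stage on swing up, down and up, while the polysome steps are smaller into the 8-cell embryo for SQLE, and negative for HMGCS1 and LSS.

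Within the gradients the heavy fractions were compared with the light, ribosome-bound fractions F3 to F5 (monosomes), summed in the same way and scaled over 24 pools. 0 of 42 gene and stage pairs were called by the edgeR quasi-likelihood test (6 at an unadjusted p under 0.05), and DESeq2 and the edgeR likelihood ratio test called 1 each. Both pools of a letter came from the same gradient, and with the gradient as a block 0 were called as well. Of all 14873 genes tested 0.498% were called in GV, 0.437% in MII, 0% in 2-cell, 9.35% in 8-cell, 1.59% in morula and 1.43% in blastocyst samples. The 1 pair the other tests called was IDI1 in 8-cell embryos, with 41.1 and 27.3 CPM on polysomes and 2.54 and 2.997 CPM on monosomes (12.3-fold, log2 3.62 ± 1.17, adjusted p = 0.0584). Both its polysome pools were far above both monosome pools.

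The single fractions showed where the LSS and DHCR7 transcripts lay, on a scale set over all 138 libraries. LSS exceeded every transcriptome of its stage in 20 of 20 fraction libraries in GV and in MII, in 19 in 2-cell, 16 in 8-cell, 12 in morula and 5 in blastocyst embryos. This held in F1 and F2, the ribosome-free top of the gradient, in 4 of 4 libraries in GV, 4 in MII, 3 in 2-cell, 4 in 8-cell, 1 in morula and 1 in blastocyst embryos, so it lay above the transcriptome in the ribosome-free fractions as well. DHCR7 did so in 20, 19, 18, 5, 14 and 12 of 20 libraries in the same order of stages. In F1 and F2 it did in 4, 4, 3, 1, 2 and 0 of 4. SQLE did so in 18, 15, 19, 0, 0 and 0 of 20, with 3, 2, 3, 0, 0 and 0 in F1 and F2. FDFT1 did so in 2, 13, 11, 0, 4 and 10 of 20, with 0, 2, 3, 0, 0 and 1 in F1 and F2. HMGCS1 did in at most 7 of 20, CYP51A1 in at most 5 and IDI1 in at most 1 at any stage. The rank of a gene along F3 to F10 was described by Spearman's rho over 16 libraries that share gradients and depths. IDI1 was ordered toward the heavy fractions in GV (rho 0.828) and 8-cell embryos (0.808), and its mean over F8 to F10 in 8-cell embryos was 34.8 CPM beside 2.72 over F3 to F5. DHCR7 ran toward the light fractions in GV (-0.864) and toward the heavy ones in blastocysts (0.657), and FDFT1 went from -0.87 in 2-cell embryos to 0.722 in blastocysts. HMGCS1 in blastocysts was ordered toward the light fractions (-0.716), with a mean of 71.4 CPM in F8 to F10. Above these, F1 and F2 held 198 and 252 CPM in gradient A and 1573 and 132 in gradient B, a mean of 539 that was 194 without F1 of gradient B.

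**Figure D4:**
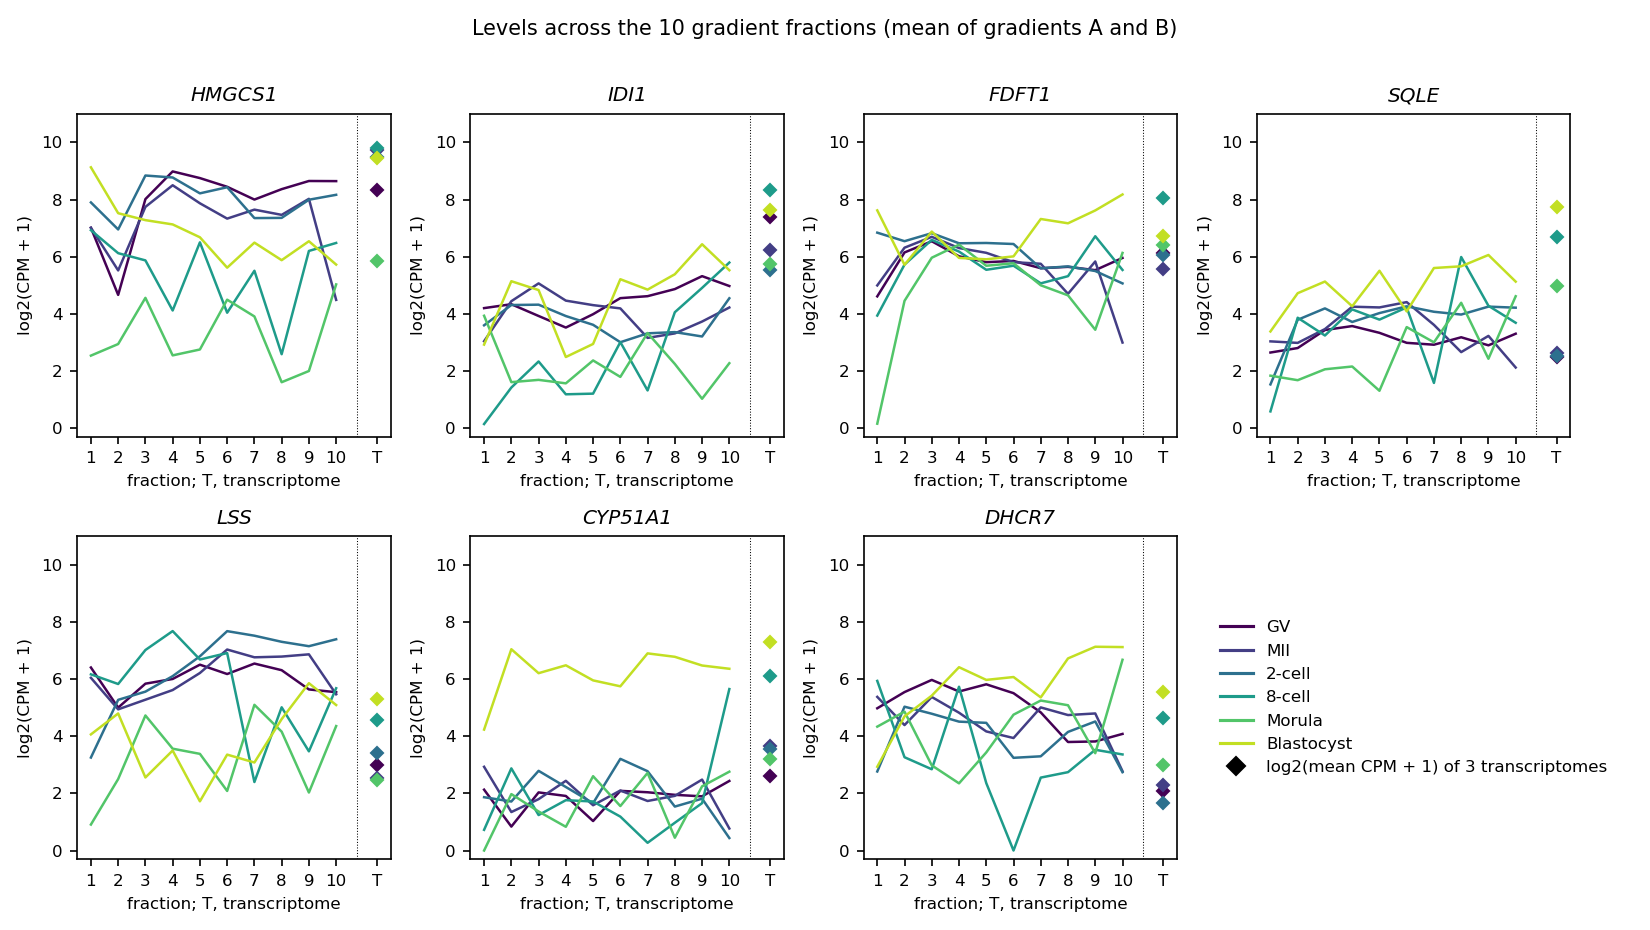
Levels of the 7 genes in fractions F1 to F10 as log2(CPM + 1), with a line for the mean of gradients A and B of each stage and a diamond for the mean of its 3 transcriptomes. LSS and DHCR7 lines of oocytes and 2-cell embryos lie above their diamonds in nearly all fractions, and the IDI1 line of 8-cell embryos is highest in F10.

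Other genes of the pathway were counted from a list of 40, of which 38 were tested. From 2-cell to 8-cell transcriptomes 21 of 38 rose and 6 fell (26.6% and 23.5% of all genes), with a median log2 change of 1.68 beside 0.03. From 8-cell to morula 3 rose and 12 fell (6.6% and 7.75%), with a median of -0.69 beside -0.05. From morula to blastocyst 14 rose and 3 fell (10.2% and 11.4%), with a median of 0.87 beside -0.01. At the first 2 steps 1 rose and 8 fell from GV to MII (6.61% and 10.5%), and 1 rose and 2 fell from MII to 2-cell (6% and 5.96%). By role, the rise into the 8-cell embryo took in 5 of 7 other mevalonate genes and 8 of 9 other sterol genes with 0 falling, while of 12 control genes 2 rose and 5 fell and of 10 transport genes 6 rose and 1 fell. Into the morula 5 mevalonate and 4 sterol genes fell and 0 rose, and into the blastocyst 5 mevalonate genes rose and 1 fell but 1 sterol gene rose. On polysomes against the transcriptome 13 were higher and 11 lower in GV (22.2% and 17.7% of all genes), 17 and 10 in MII (30.8% and 26.7%) and 17 and 7 in 2-cell samples (29.1% and 21.9%). They were 14 and 16 in 8-cell (28% and 31%), 14 and 6 in morula (26.5% and 25.2%) and 11 and 5 in blastocyst samples (20% and 20.1%). The mevalonate kinases and decarboxylase MVK, PMVK and MVD, the control genes SREBF1, SCAP and NR1H2 and the cholesterol carrier STARD3 were higher on polysomes at all 6 stages, 7 of 38 beside 9.92% of all genes. The sterol oxidase MSMO1 and desaturase SC5D were lower at all 6, 2 of 38 beside 5.78%.

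SREBF2, the transcription factor of the pathway, held 0.304 to 5.27 CPM in transcriptomes up to the morula and 44.98, 40.2 and 44.0 in blastocysts, and its pools held 8.17 to 107.5 CPM. Its pools lay above the transcriptomes at every stage. SREBF2 was 9.76-fold to 17-fold higher on polysomes from GV to morula (log2 3.29 to 4.09, adjusted p at most 0.000114), not called in blastocysts. Its transcriptome step was called at the rise into the blastocyst (3.44 ± 0.59, adjusted p = 0.000143) and at no other step.

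INSIG1, which holds SREBF2 in the endoplasmic reticulum, had pools of 365 and 352 CPM in 2-cell, 125 and 108 in 8-cell, 0.0482 and 24.6 in morula and 106 and 123 in blastocyst embryos. Its transcriptomes of these stages held 30.4, 30.8 and 43.6, then 48.7, 11.7 and 18.01, then 2.71, 2.50 and 4.85, then 24.4, 45.4 and 45.4 CPM. Both kinds of library were lowest in the morula. It was higher on polysomes from GV to 8-cell (log2 2.72, 2.90, 3.36 and 2.16, adjusted p at most 0.0296), but not in GV without pool A (adjusted p = 0.0697) or in 8-cell embryos without pool A or transcriptome B or C (adjusted p = 0.0705 to 0.107). It fell and rose around the morula in the transcriptomes (-2.96 ± 0.83 and 3.52 ± 0.85, adjusted p = 0.0161 and 0.00353) and on the polysomes (-3.23 ± 0.996 and 3.21 ± 0.995, adjusted p = 0.0139 and 0.0336). The transcriptome fall was lost without 8-cell transcriptome A or morula transcriptome A or B (-2.83 to -2.15, adjusted p = 0.0731 to 0.106). The polysome steps held in 13 and 10 of 14 alternatives, and with morula pool A near 0 their fitted size ran from -11.02 to -2.24 and from 2.24 to 11.02.

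The largest called changes among the listed genes met libraries at or near 0. HSD17B7, a sterol ketoreductase, held 40.3, 41.1 and 25.8 CPM in 8-cell transcriptomes and 0 in both 8-cell pools. This put it at least 768-fold lower on polysomes by a floor of 3 counts over the group. Morula pool A also held 0, so the called rise into the morula pools rested on pool B alone (2.67 CPM, 93 counts). The 2-cell pools held 0 and 1.78 CPM. TM7SF2, a sterol reductase, was 190-fold higher on MII polysomes (225 and 262.5 CPM against 0.801, 1.93 and 1.07, adjusted p = 7.42e-07), and its polysome step into the blastocyst was lower than its transcriptome step (-5.80 ± 1.30, adjusted p = 0.00566). SCARB1, a lipoprotein receptor, held 0 in both MII pools, at least 21.7-fold below its transcriptomes, and rose in both kinds of library from 2-cell to 8-cell embryos (adjusted p = 0.000163 and 0.00404), where 1 of 2 pools stayed at 0.0820 CPM. ABCA1, the cholesterol exporter, went from 2836 to 2 polysome counts over that step (ratio 1300, counting interval 359 to 10700, exact, 95%), and its step into the morula was larger on polysomes (7.58 ± 1.23, adjusted p = 0.000293). NCEH1, a cholesteryl ester hydrolase, had 1 count in 2-cell and 309 in 8-cell transcriptomes (ratio 342, interval 61 to 13600). Between polysomes and monosomes the sterol reductase LBR and SC5D in 8-cell embryos (1793 against 3 and 853 against 3 counts, ratios 693 and 330, intervals 237 to 3360 and 112 to 1600) stood out. These intervals and floors cover counting error only.

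Likeness of pattern was measured as Pearson's r over the 12 group means of log2(CPM + 1), among 10257 genes with a mean of at least 5 CPM. HMGCS1 was most like GPD2 (0.912) and GMPS (0.892), IDI1 like C1GALT1 (0.886) and ANXA3 (0.863), FDFT1 like PARVA (0.885) and MDK (0.843), and SQLE like ZMIZ1 (0.947) and ENOPH1 (0.923). LSS was like LMF2 (0.941), CYP51A1 most like BIVM (0.917) and CMBL (0.864), and DHCR7 like CHST14 (0.951) and ZYX (0.943). Among the 7 genes FDFT1 and CYP51A1 were the most alike (0.821) and HMGCS1 and DHCR7 the least (-0.362). The points share libraries and stages, and with a pseudocount of 0.1 the first gene changed for IDI1, LSS and DHCR7.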

How the data were processed

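Libraries were made with Smart-seq v4 and Nextera XT kits, which do not mark strand. The authors quantified reads with Salmon on the Ensembl bovine annotation (ARS-UCD1.2 in the methods, UMD3.1 in the submitters' processing notes) and deposited expected counts per gene symbol for 138 libraries, not normalized, of which 11.7% are not whole numbers. Versions and read filters are not given in the sources used here. Library names gave stage, fraction and letter, and 0 columns were unmapped.

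Expected counts of F8 to F10 (polysomes) and F3 to F5 (monosomes) were summed per gradient and rounded. In R 4.3.3, edgeR 4.0.16 (limma 3.58.1) fitted quasi-likelihood models with TMM factors and filterByExpr to 30 libraries (12 pools, 18 transcriptomes) and to 24 pools, with 1 coefficient per group. P-values were two-sided and adjusted over all genes by the Benjamini-Hochberg method. Alternatives covered the likelihood ratio test, DESeq2 1.42.0, RLE factors or library totals, no filter, the groups in the fit, a replicate block, thinning, other pools, the pseudocount and each library left out. Pools and transcriptomes were not treated as paired by letter, and their same-lettered deviations correlated at -0.069 to 0.036. The polysome and monosome pools of a letter are fractions of the same gradient and so are paired. Their deviations correlated at -0.077 to 0.169, and a block by gradient was an alternative. Since paired pools correlated this weakly, such correlations cannot show whether the letters pair pools with transcriptomes. No libraries were identical. Fraction libraries held 1229375 to 17342854 counts.

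The 7 genes and the pathway and marker lists were chosen with earlier results of these data known. Named besides the 7 genes were SREBF2, INSIG1, the 3 called listed genes with the largest change in each family of comparisons and the 2 genes most like each of the 7, and some genes that this rule names are not reported here. On simulated 2-cell and 8-cell transcriptomes (14213 genes), 61 of 100 genes changed 8-fold and 27 of 100 changed 4-fold were recovered. RefSeq's table (ARS-UCD2.0) matched 7 of 7 symbols. Its coordinates served only to find genes that overlap the 7, and none are printed because builds differ.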

Additional observations from a re-analysis of the deposited data

Results flagged for a closer look

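At 2 steps between stages the polysome change of a gene differed from its transcriptome change by the interaction test of edgeR's quasi-likelihood model. From 2-cell to 8-cell embryos the polysome step minus the transcriptome step was -2.54 for HMGCS1 (adjusted p = 0.0351), -3.09 for LSS (adjusted p = 0.028) and -3.25 for SQLE (adjusted p = 0.0111) on the log2 scale. From 8-cell embryos to morulae it was 2.92 for HMGCS1 (adjusted p = 0.0164), and 0.13 without morula polysome pool B. Groups of 2 or 3 libraries were too small for a search for single outlying values.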

How the results depend on the processing

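With other tests, scalings, filters, pools, blocks or depths, 1818 of 1904 log2 differences of the 7 genes kept their side of the threshold, 54 passed it newly and 32 lost it. Signs turned in 41, none of them called, and 11 of these with library totals alone (HMGCS1, SQLE and CYP51A1 from MII to 2-cell transcriptomes went from -0.394, -0.252 and -0.222 to 0.102, 0.227 and 0.278). Called polysome steps went from 4 higher and 2 lower to 0 and 0 when only the groups compared were fitted, and to 1 lower with F9 and F10 as the pool. The 4 calls of a polysome step against a transcriptome step were 8 by DESeq2, 2 with F9 and F10 and 9 with F7 to F10. The 0 calls against monosomes were 1 by the likelihood ratio test, 1 by DESeq2, 3 when only the groups compared were fitted, and 1 with either other pool. The replicate block by letter gave 9 higher and 8 lower for polysomes against transcriptome, 10 and 6 for transcriptome steps, 3 and 2 for polysome steps, 3 for the difference of steps and 0 against monosomes, as did a block by gradient. The call of LSS on 8-cell polysomes held in 5 of 15 alternatives and was lost with DESeq2 (1.21, adjusted p = 0.0793), RLE factors and library totals. The causes were not tested.

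With each library left out, the calls ranged from 8 to 13 higher and 7 to 16 lower for polysomes against transcriptome, 10 to 11 higher (12 with all) and 3 to 6 lower for transcriptome steps, 3 to 8 higher and 1 to 7 lower for polysome steps, 2 to 11 for the difference of steps and 0 to 2 against monosomes. Some signs turned, and each range here runs over the libraries left out, on the log2 scale. For DHCR7 in 8-cell embryos, with 1 pool at 0, it was -11.56 to 2.31 against the transcriptome, -11.43 to 2.43 from the 2-cell pools and -12.69 to 2.16 against monosomes (fitted values, no bounds). In morulae, always turned without pool B, it was -6.20 to 1.71 for CYP51A1 and -5.92 to 2.86 for INSIG1 against the transcriptome. The difference of steps into the morula was -4.36 to 1.23 for IDI1 and -4.90 to 3.22 for CYP51A1, and that into the blastocyst -2.12 to 5.79 for CYP51A1 and -1.29 to 7.49 for INSIG1. Library totals alone moved the median of all genes by up to 0.47 (log2, MII to 2-cell) and the share of higher calls among all genes by over 10 points in 12 comparisons. It went from 38.7% to 14.3% (GV to MII) and 50.2% to 79.9% (MII to 2-cell) in transcriptomes, from 56.5% to 26.1%, 39.6% to 62.3% and 51% to 38.8% on polysomes (GV to MII, MII to 2-cell and 8-cell to morula), from 49.9% to 39.8% for polysomes against transcriptome in blastocysts, from 40.2% to 29.9% and 56.6% to 44.8% for the difference of steps (MII to 2-cell and 8-cell to morula), and against monosomes from 63.5% to 88.7% in GV, 48.7% to 67.4% in 8-cell, 44.1% to 33.1% in morula (the same with RLE factors) and 55.9% to 71.1% in blastocyst samples. Depth limits values near 0: a count of 0 allows up to 0.918 CPM in a transcriptome.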
